A study of Mus musculus with 18 samples.

Results

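The genes described here are 42 genes of mitosis, chosen by name from the 32286 features counted in single-cell RNA-seq libraries of the mouse small intestine. They were followed as UMIs (unique molecular identifiers, the molecules counted per cell) in 8 libraries, 2 in each of 4 groups, and the question was where in the epithelium these genes are used and whether their use differs after loss of Setdb1, a histone methyltransferase. In the Lgr5+ experiment, GFP marks cells that express the stem cell gene Lgr5, and Lgr5+WT (Lgr5-GFP-CreERT2) was compared with Lgr5+Setdb1-KO (Lgr5-GFP-CreERT2/ Setdb1lox/lox). The paper explains the mature cells found in this sort by its gating and by incomplete enrichment of GFP+ cells. Whether those cells carried the Setdb1 deletion was not tested. In the lineage-traced experiment both genotypes also carried nTnG, a reporter at the ROSA locus that switches from tdTomato to EGFP in Lgr5+ cells and stays switched in their progeny, so that Setdb1-KO was Lgr5-GFP-CreERT2/ Setdb1lox/lox/nTnG and WT was Lgr5-GFP-CreERT2/nTnG. The mice were males of the C57Bl6 strain, 60 to 65 days old. All, the WT included, carried the Lgr5-driven Cre and had received tamoxifen intraperitoneally at 70 mg/kg. After 5 days GFP+ cells were sorted from a fraction of the ileum enriched for crypts. The Lgr5 reporter is active in only part of the crypts, which limits both genotypes as a model of the whole tissue, and the traced cells hold Lgr5+ cells as well as their progeny. The other 10 samples of the series (bulk RNA, chromatin and accessibility) were not analysed here.

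Mitosis is driven by the kinase Cdk1 with its B-type cyclins, and is ended by ubiquitin-dependent destruction of cyclins through the anaphase-promoting complex. Between these events the spindle is built, kinetochores attach chromosomes to it, a checkpoint holds anaphase until attachment is complete, and the central spindle directs cytokinesis. In the intestine, division is restricted to the crypt, where Lgr5+ stem cells and the transit-amplifying progenitors above them cycle, while villus enterocytes and mature secretory cells have left the cycle. The 42 members comprise 11 genes of cell cycle control (Ccna2, Ccnb1, Ccnb2, Cdk1, Cdkn3, Plk1, Aurka, Cdc20, Ube2c, Cdca3 and Pbk), 3 of the chromosome passenger complex that corrects attachments (Aurkb, Birc5 and Cdca8), 8 of the kinetochore and the spindle checkpoint (Cenpa, Cenpe, Cenpf, Bub1, Bub1b, Ndc80, Nuf2 and Ttk), 9 of spindle assembly and motors (Tpx2, Kif11, Kif2c, Kif4, Hmmr, Nusap1, Tacc3, Ckap2 and Ckap2l), 7 of the central spindle and cytokinesis (Prc1, Kif20a, Kif20b, Kif23, Racgap1, Ect2 and Anln) and 4 of chromosome structure and proliferation (Top2a, Smc2, Smc4 and Mki67).

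Mitosis genes share a promoter element, the cell cycle genes homology region, which is read by the MuvB complexes that silence these genes in resting cells and, with Mybl2 and Foxm1, switch them on late in the cycle. Its common forms TTTGAA and TTCGAA, and CCAAT, the box bound by NF-Y, were searched on both strands of promoter windows from RefSeq (build GRCm38.p6) running from 250 bases before to 50 bases after the start of a gene. A window was found for 36 of the 42 members, the others being Ccna2, Pbk, Aurkb, Tpx2, Kif20a and Smc4. TTTGAA or TTCGAA occurred in 30 of the 36 windows (83.3%), against 19.4% of the windows of 27025 genes, and 26 of those 30 genes had a match within 50 bases of the start. CCAAT occurred in 28 of 36 (77.8%, against 37.9% of all genes), and both elements in 26 (72.2%, against 7.70%). Of 5 neighbouring lists, the other mitosis genes held TTTGAA or TTCGAA in 34 of 53 windows (64.2%), CCAAT in 66.0% and both in 49.1%. The replication genes of S phase held TTTGAA or TTCGAA in 2 of 17 windows (11.8%) and CCAAT in 11 (64.7%). TTTGAA or TTCGAA occurred in 5 of 14 windows of the upstream regulators of mitosis genes, in 3 of 15 of the genes of the anaphase-promoting complex and mitotic exit, and in 1 of 10 of the G1 cyclins and inhibitors. Ccnb1, Birc5, Cenpe, Nuf2, Nusap1 and Tacc3 held neither TTTGAA nor TTCGAA in this window. These are matches of letters and not measured sites.

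The stretches below show how the elements are spaced in 8 members of different roles, from the sense strand, 5′ to 3′, each ending upstream of any annotated exon, so that matches closer to the start of a gene lie outside the stretch. Capitals mark either form of the homology element and the CCAAT box, also where they lie on the other strand and read TTCAAA or, for the box, ATTGG. The stretches are at chr10:69352939-69353058 (- strand) for Cdk1, chr2:164769778-164769897 (+ strand) for Ube2c, chr4:118437353-118437472 (- strand) for Cdc20, chr19:37376262-37376381 (+ strand) for Kif11, chr3:27153879-27153998 (- strand) for Ect2, chr11:99024190-99024309 (- strand) for Top2a, chr7:135716380-135716579 (- strand) for Mki67 and chr13:100786571-100786690 (- strand) for Ccnb1.
Cdk1: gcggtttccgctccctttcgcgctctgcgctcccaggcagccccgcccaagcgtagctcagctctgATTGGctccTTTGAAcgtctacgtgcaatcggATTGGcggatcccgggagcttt
Ube2c: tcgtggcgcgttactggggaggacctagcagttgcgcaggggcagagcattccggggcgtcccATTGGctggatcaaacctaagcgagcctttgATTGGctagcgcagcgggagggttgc
Cdc20: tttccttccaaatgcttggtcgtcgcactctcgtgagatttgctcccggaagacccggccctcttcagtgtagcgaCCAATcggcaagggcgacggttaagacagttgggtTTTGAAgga
Kif11: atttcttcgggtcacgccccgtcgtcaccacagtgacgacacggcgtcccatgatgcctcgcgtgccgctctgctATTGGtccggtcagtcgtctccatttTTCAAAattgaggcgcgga
Ect2: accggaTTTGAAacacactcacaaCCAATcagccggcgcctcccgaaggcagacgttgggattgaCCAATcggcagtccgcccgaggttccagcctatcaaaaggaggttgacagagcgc
Top2a: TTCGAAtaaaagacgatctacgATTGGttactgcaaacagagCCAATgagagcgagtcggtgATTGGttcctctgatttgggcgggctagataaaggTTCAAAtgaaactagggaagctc
Mki67: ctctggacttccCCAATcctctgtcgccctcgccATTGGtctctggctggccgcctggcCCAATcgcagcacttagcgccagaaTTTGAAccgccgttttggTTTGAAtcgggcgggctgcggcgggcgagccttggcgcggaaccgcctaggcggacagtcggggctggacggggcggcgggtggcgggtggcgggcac
Ccnb1: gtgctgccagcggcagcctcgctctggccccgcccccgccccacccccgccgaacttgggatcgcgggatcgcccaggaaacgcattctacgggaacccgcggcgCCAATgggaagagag
In Cdk1, Cdc20, Kif11 and Mki67 at least 1 CCAAT box stood upstream of the homology element. In the stretch of Mki67 both TTTGAA elements followed 3 CCAAT boxes, whereas the stretch of Ccnb1 held a CCAAT box alone. Top2a carried both forms of the element.

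The libraries held 16881518 to 81876035 UMIs. Barcodes with 1000 (Lgr5+) or 500 (lineage-traced) to 18000 UMIs and under 5% mitochondrial UMIs were kept as cells, which left 2894 to 11423 cells per library in the Lgr5+ experiment, with median depths of 4686 to 9336 UMIs, and 3882 to 10239 in the lineage-traced one, with median depths of 961 to 2085. Libraries shared 0.10% to 0.45% of their barcodes. In the traced experiment markers of Paneth cells, the granule-bearing cells of the crypt base, took 29.7% to 32.4% of the UMIs of kept cells in WT and 4.74% to 7.02% in Setdb1-KO, Paneth-like cells (defined with the other classes in the next paragraph) were 9.45% and 4.48% of cells against 1.68% and 0.81%, and WT library 2 had 420685 barcodes of 10 to 100 UMIs. Setdb1 itself was at 11.3 and 9.93 UMIs in every 1000000 UMIs of a library (CPM) in the Lgr5+WT libraries and at 5.32 and 6.21 in Lgr5+Setdb1-KO (log2 fold change -0.85, SE 0.14, edgeR adjusted p = 0.047). In the traced libraries it was at 6.11 and 4.21 in WT and at 10.4 and 7.85 in Setdb1-KO (0.24, adjusted p = 0.60). Counting from the 3′ end does not measure the deleted exon, so these levels check neither genotype. The paper reports that it checked the deletion by PCR in sorted GFP+ cells, with and without nTnG.

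Cells were placed in classes by the share of their UMIs from fixed marker lists, and are called stem-like, absorptive-like, goblet-like, enteroendocrine-like, tuft-like or Paneth-like only in that sense. A class needed at least 1.5 times the highest marker share of free RNA in the experiment and at least 3 marker UMIs (2 for stem). Classes other than stem also needed a marker share of at least 0.2%. Stem-like cells reached the stem list and no other list. Cells that reached several of the other lists were set apart as mixed. Cells that reached no list are called unmarked. All 42 members were detected in every library, from 7767 member UMIs in traced WT library 2 to 152585 in Lgr5+Setdb1-KO library 2, and the least abundant member of any library still had 19 UMIs.

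Ube2c, the ubiquitin-conjugating enzyme that works with the anaphase-promoting complex, was the most abundant member in the 4 Lgr5+ libraries, at 15.0% to 15.7% of member UMIs. Over all Lgr5+ cells it averaged 387 CPM, followed by Birc5 (survivin), of the passenger complex, at 232 CPM, while Top2a, the topoisomerase that untangles sister chromatids, averaged 143 CPM. In the traced experiment the leading member was Top2a in 2 libraries and Ube2c in the other 2, at 8.75% to 12.3%. The 5 leading members together gave 37.1% to 40.3% of the member UMIs of a library. By role, cell cycle control took a median of 36.0% of member UMIs over the 8 libraries (23.4% to 43.7%), chromosome structure 17.5% (14.2% to 26.0%), kinetochore and checkpoint 12.4% (10.7% to 13.2%), the passenger complex 12.3% (6.91% to 15.8%), spindle assembly 12.2% (8.84% to 18.6%) and the central spindle 9.41% (6.70% to 13.9%). These are shares of UMIs, which 3′ counting gives per molecule without regard to length.

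Across the epithelium, the members were highest in stem-like and unmarked cells and lower in each differentiated class. In the Lgr5+ experiment the mean CPM over the 4 libraries was highest in unmarked cells for 39 of 42 members and in stem-like cells for the other 3. All 42 were higher in stem-like than in goblet-like, absorptive-like, enteroendocrine-like, tuft-like and Paneth-like cells, with a median ratio over members of 2.08 against goblet-like and 4.54 against absorptive-like cells. In the traced experiment 31 members were highest in stem-like cells, 4 in unmarked, 6 in enteroendocrine-like and 1 in tuft-like cells, classes that there held 34 to 144 and 7 to 193 cells per library.

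**Figure D1:**
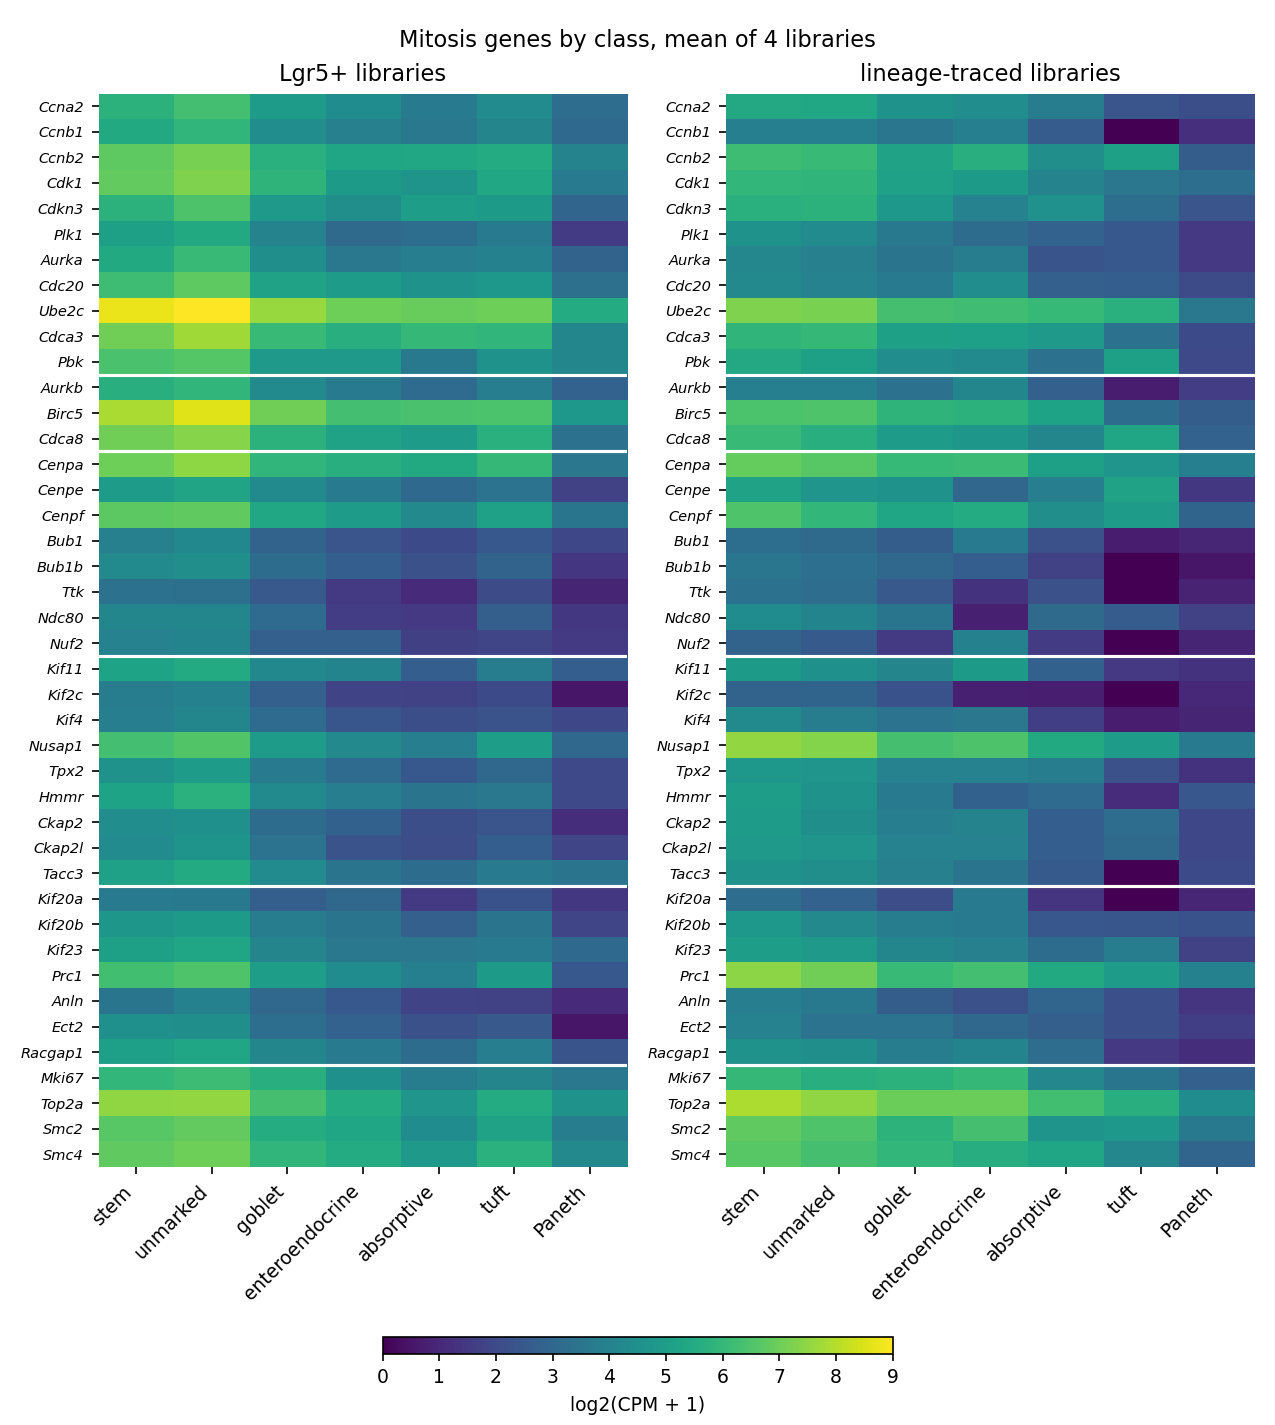
Heat map of log2(CPM + 1) for the 42 members (rows, grouped by role) in each cell class (columns), as the mean of the 4 libraries of each experiment. The stem and unmarked columns are the brightest or near brightest for most members, and Ube2c, at 428 CPM in stem-like and 590 CPM in unmarked cells of the Lgr5+ experiment, is the most abundant.

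The members did not differ from class to class in equal measure. Ube2c averaged 428 CPM in stem-like, 194 in goblet-like and 120 in absorptive-like cells of the Lgr5+ experiment, and 154, 80.4 and 63.9 CPM in the traced one. Mki67, the proliferation antigen that coats mitotic chromosomes, averaged 60.6 CPM in stem-like and 50.7 in goblet-like cells (Lgr5+), and 62 and 53.5 CPM (traced). Its ratio of stem-like to goblet-like cells was the lowest of all members in both experiments, at 1.20 and 1.16. The highest such ratio was that of Pbk, a mitotic kinase, in the Lgr5+ experiment (3.00) and of Nuf2, a subunit of the Ndc80 kinetochore complex, in the traced one (3.39).

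Counting cells rather than UMIs also put stem-like cells above the differentiated classes in most libraries. The order among the differentiated classes was in part another. A cell was called mitosis-high when, thinned at random to 1000 UMIs (Lgr5+) or 500 UMIs (traced), at least 0.4% of its UMIs, that is 4 or 2 UMIs, came from the members. Among all kept cells of the Lgr5+ experiment 26.8% and 22.4% were mitosis-high in the WT libraries and 19.4% and 23.4% in Setdb1-KO. Among stem-like cells the shares were 31.7% and 25.4% in WT and 22.2% and 24.7% in Setdb1-KO, and among unmarked cells 39.0% and 35.9% against 39.4% and 38.7%. The genotypes overlapped over all cells and among unmarked cells, but among stem-like cells both Setdb1-KO libraries lay below both WT libraries. Without thinning, the stem-like shares were 31.0% and 24.3% against 20.2% and 23.1%.

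Differentiated classes held fewer mitosis-high cells. In goblet-like cells of the Lgr5+ experiment the shares were 10.8% and 10.5% in WT and 8.79% and 12.1% in Setdb1-KO. Absorptive-like cells gave 4.89% and 5.73% against 9.74% and 4.27%, and enteroendocrine-like cells 4.59% and 5.65% against 1.48% and 5.10%. The genotypes overlapped in each of these classes, and Lgr5+Setdb1-KO library 1 was the lowest library in goblet-like and enteroendocrine-like cells and the highest in absorptive-like cells.

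In the traced experiment stem-like cells were mitosis-high in 27.0% and 25% (WT) and in 26.0% and 18.8% (Setdb1-KO). Unmarked cells ranged from 9.33% to 27.5% over the libraries. Goblet-like cells gave 9.76% and 6.97% against 18.7% and 9.91%, and absorptive-like cells 5.12% and 3.33% against 16.4% and 3.94%. The 16.4% came from 61 cells. Enteroendocrine-like cells gave 5.08% and 0% (0 of 34 cells, Wilson 95% interval up to 10.2%) against 27.1% (59 cells) and 6.94%. Setdb1-KO library 1 was the higher Setdb1-KO library in each of these classes. Without that library the goblet-like difference of 5.95 points was 1.55, and the difference also shrank when more member UMIs were required.

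**Figure D2:**
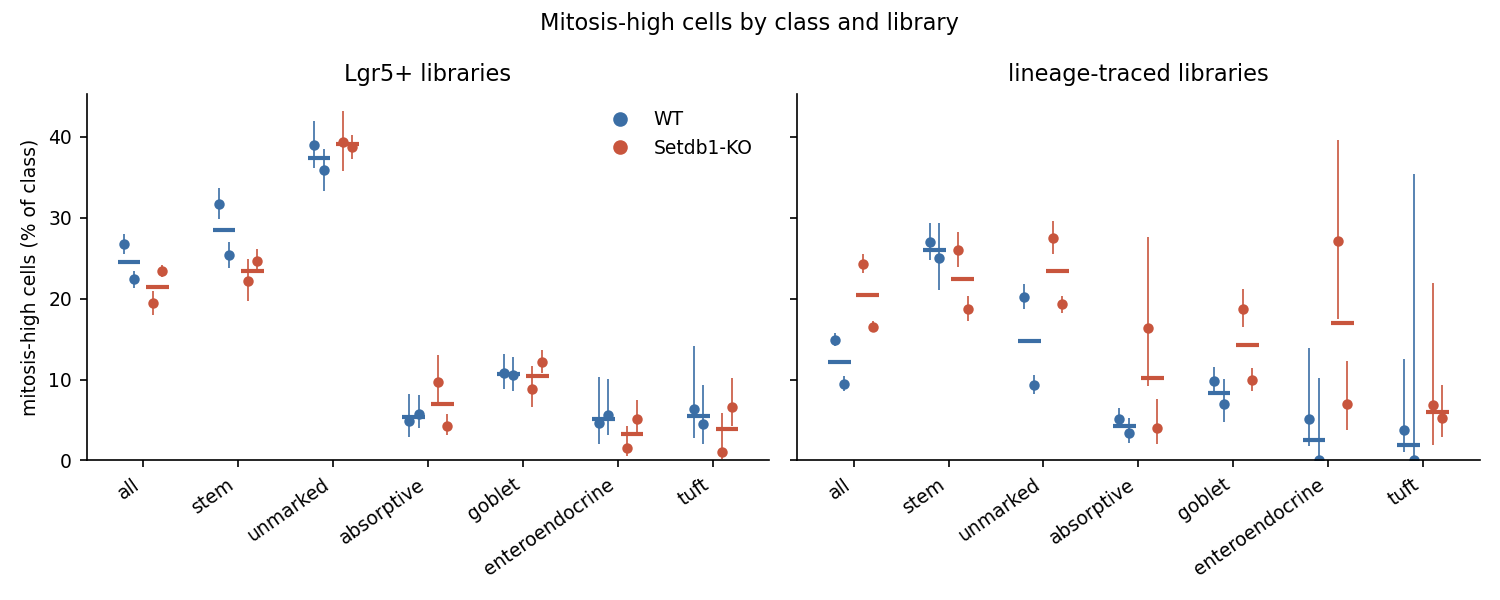
Percent of cells called mitosis-high (y axis) by cell class (x axis) in the Lgr5+ and the lineage-traced experiment, each point a library with its Wilson 95% interval for counting error and each line the mean of 2 libraries, with WT and Setdb1-KO in separate colours. Stem-like cells of the Lgr5+ experiment lie between 22.2% and 31.7%, and goblet-like cells between 8.79% and 12.1%.

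Compared within libraries, the share of mitosis-high cells was higher in stem-like than in goblet-like cells in 8 of 8 libraries, by 14.1 ± 4.63 percentage points (mean ± SD, n = 8, exact two-sided sign-flip permutation p = 0.0078, the smallest that 8 libraries allow, and 0.0117 after Benjamini-Hochberg adjustment over 6 class comparisons). The difference was 18.4 ± 5.67 points against absorptive-like cells, again in 8 of 8 libraries (exact adjusted p = 0.0117). It was 20.8 ± 3.91 against tuft-like and 22.9 ± 3.04 against Paneth-like cells, each in 8 of 8 libraries with the same exact p. Against enteroendocrine-like cells it was 18.1 ± 8.98 points, in 7 of 8 libraries (exact adjusted p = 0.0188), and against unmarked cells -3.58 ± 11 points, stem-like cells being higher in 2 of 8 libraries (exact p = 0.359). As summed member CPM, stem-like cells stood at a median of 2.09 times goblet-like cells (1.43 to 2.60 over the libraries) and 3.51 times absorptive-like cells (2.45 to 6.60). By definition Paneth-like cells gave at least 17.5% (Lgr5+) or 53.0% (traced) of their UMIs to their markers. This left fewer UMIs for the members and made the mitosis-high call harder to reach. The smallest tuft-like and Paneth-like classes of a library held 7 and 11 cells.

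Free RNA gives UMIs of the members to any cell, and its level was set beside these shares. Barcodes of 10 to 100 UMIs, taken as free RNA, held 1203 to 1684 member CPM in the Lgr5+ experiment and 507 to 1394 in the traced one, and a cell made of such RNA alone would have reached the mitosis-high call in 3.40% to 9.08% and 2.72% to 15.5% of cases. By genotype free RNA held 1684 and 1477 member CPM in Lgr5+WT against 1203 and 1344 in Lgr5+Setdb1-KO. In the traced experiment it held 806 and 507 in WT against 1394 and 975 in Setdb1-KO, without overlap in either experiment. Tuft-like cells, a mature type, reached 1.09% to 6.59% in the Lgr5+ experiment at median depths of 3268 to 6482 UMIs, against 4181 to 8915 in stem-like cells. In the traced experiment they reached 0% to 6.90% at 1131 to 1768 UMIs, against 1130.5 to 2004 in stem-like cells. The absorptive-like share lay below its library's free RNA level in 5 of 8 libraries. It lay above it in Lgr5+Setdb1-KO library 1 (9.74%, Wilson 95% interval 7.18% to 13.1%, against 3.40%), whereas in traced WT library 2 (3.33% against 2.72%) and traced Setdb1-KO library 1 (16.4% against 15.5%) the interval included the free RNA level. The enteroendocrine-like share lay below its library's free RNA level in the Lgr5+ experiment except in Setdb1-KO library 2, and in the traced one except in Setdb1-KO library 1. The goblet-like share was higher than its library's free RNA level in all 8 libraries, but in Lgr5+WT library 1 (10.8% against 9.08%) and traced Setdb1-KO library 2 (9.91% against 8.64%) its interval included that level. As summed member CPM, goblet-like cells of the Lgr5+ experiment lay below free RNA in each library except Setdb1-KO library 2 (1598 against 1344 CPM). In the traced experiment they lay above it in each library. How much of a cell's RNA was free RNA was not measured.

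**Figure D3:**
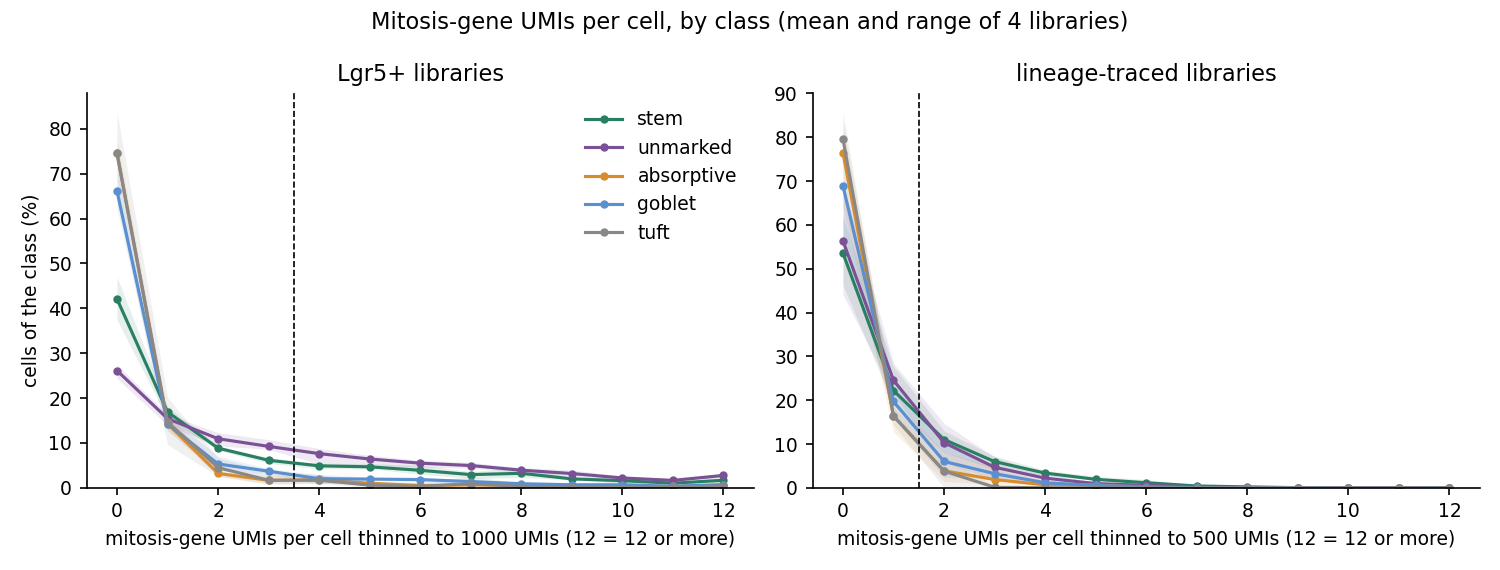
Percent of the cells of a class (y axis) against member UMIs per cell after thinning to 1000 UMIs (Lgr5+) or 500 UMIs (traced) (x axis), as the mean line and range of 4 libraries, with the call drawn as a dashed line. In stem-like cells of the Lgr5+ experiment 37.4% to 47.0% had no member UMI, against 71.3% to 77.6% of absorptive-like cells.

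Most mitosis-high cells were stem-like or unmarked, which together made up 84.7% to 90.8% of them in the Lgr5+ libraries and 80.5% to 88.5% in the traced ones. Stem-like cells were 56.8% and 55.0% of the mitosis-high cells in Lgr5+WT and 39.0% and 32.3% in Lgr5+Setdb1-KO, and unmarked cells 34.0% and 35.3% against 45.7% and 55.3%. Among all cells, stem-like cells were 47.9% and 48.6% in Lgr5+WT and 34.1% and 30.6% in Lgr5+Setdb1-KO, without overlap. Unmarked cells were 23.3% and 22.0% against 22.5% and 33.4%, with overlap, Setdb1-KO library 2 alone being higher. In the traced libraries stem-like cells were 33.6% and 28.5% of the mitosis-high cells in WT and 34.8% and 26.8% in Setdb1-KO. They were 18.5% and 10.8%, and 32.6% and 23.6%, of all cells. Unmarked cells there were 48.2% and 57.1% of the mitosis-high cells in WT and 45.7% and 61.7% in Setdb1-KO. Of all cells they were 35.5% and 58.0%, and 40.4% and 53.0%, so in WT library 2 they were not enriched. Olfm4, one of the markers that place a cell in the stem-like class, was at 3211 and 2892 CPM over all cells in Lgr5+WT and at 1744 and 1479 in Lgr5+Setdb1-KO (log2 fold change -0.91, SE 0.12, edgeR adjusted p = 0.024), so membership of the class depends on a gene that differs between the genotypes.

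Setdb1-KO was compared with WT gene by gene on UMIs summed per library and class (edgeR quasi-likelihood test, adjusted over all genes tested, threshold 0.05). With all libraries, no member passed the threshold in any set of cells where members were tested. Tuft-like, Paneth-like and mixed cells were not tested, and traced enteroendocrine-like cells held no member to test. Among stem-like cells of the Lgr5+ experiment 0 of 42 members were called, against 0.953% of the 11960 genes tested, with 16 members at an unadjusted p under 0.05, all lower in Setdb1-KO, while 13.1% of all genes reached that p in either direction. By DESeq2 1 member was called, Cenpe. The count of 0 depended on the libraries: without WT library 1, WT library 2, Setdb1-KO library 1 or Setdb1-KO library 2, the edgeR test called 1, 9, 2 and 6 members, all lower in Setdb1-KO, while 4.03%, 3.74%, 2.77% and 3.02% of all genes were called in those fits, with the lone library of a group assumed to vary like the others. The fitted fold change was below 0 for 41 of 42 members, with a median of -0.26 on the log2 scale, against -0.0038 for all genes. Library values did not overlap between the genotypes for 21 of 42 members, all lower in Setdb1-KO, against 42% of all genes in either direction. For the comparisons that follow, the share of all genes at an unadjusted p under 0.05 is not given. Their counts of members at that p therefore cannot be read as an excess.

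Of the cell cycle control genes in Lgr5+ stem-like cells, Ube2c was at 525 and 423 CPM in WT and at 362 and 403 in Setdb1-KO (log2 fold change -0.26, SE 0.11, edgeR adjusted p = 0.34). Its genotypes did not overlap. Cdca3, a trigger of entry into mitosis, was at 154 and 126 CPM against 116 and 133, Ccnb2, a B-type cyclin, at 133 and 105 against 87.7 and 108, and both overlapped. Cdk1, the mitotic kinase, was at 126 and 110 CPM against 113 and 99.7, and its partner Ccnb1 at 52.5 and 40.0 against 37.2 and 43.2. Cdk1 and Ccnb1 overlapped between the genotypes, with log2 fold changes of -0.11 and -0.15. The 11 control genes had a median of -0.15, with 10 lower, and Pbk was the 1 member above 0 (0.11, SE 0.09).

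In the passenger complex, Birc5 (survivin) was at 269 and 224 CPM against 203 and 226, Cdca8 (borealin) at 158 and 119 against 116 and 133, and Aurkb, its kinase, at 57.1 and 46.9 against 46.1 and 43.3. Aurkb did not overlap between the genotypes, by a narrow margin, and the other 2 did. The 3 fold changes ran from -0.18 to -0.11.

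The kinetochore genes had the lowest single value. Cenpe, the kinesin that carries chromosomes to the spindle equator, was at 42.7 and 32.6 CPM in WT and at 18.2 and 25.4 in Setdb1-KO (log2 fold change -0.72, SE 0.16, edgeR adjusted p = 0.082). Both Setdb1-KO libraries lay below both WT libraries. Cenpa, the histone variant of the centromere, was at 159 and 131 CPM against 98.4 and 122 (-0.35, SE 0.12, edgeR adjusted p = 0.26), without overlap, whereas Cenpf at 136 and 105 against 73.9 and 109 overlapped. Bub1b, a checkpoint kinase-like protein, was at 24.6 and 19.6 CPM against 15.5 and 14.8 (-0.50, SE 0.13, edgeR adjusted p = 0.13). All 8 kinetochore and checkpoint genes were below 0, with a median of -0.33.

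Spindle assembly genes had a median of -0.29, all 9 below 0 and 8 of them without overlap, and central spindle genes a median of -0.39, all 7 below 0 and 4 without overlap. In the other roles 2 of 11 control genes, 1 of 3 of the passenger complex, 3 of 8 of the kinetochore and 3 of 4 of chromosome structure were without overlap, where 42% of all genes were. Hmmr, a spindle microtubule-binding protein, was at 46.8 and 39.2 CPM against 25.4 and 35.3 (-0.44, SE 0.15), and Kif23, the kinesin of the central spindle, at 44.8 and 32.6 against 28.3 and 27.9 (-0.42, SE 0.13). Top2a was at 232 and 181 CPM against 149 and 164 (-0.35, SE 0.11, edgeR adjusted p = 0.21), Smc4, a condensin subunit, at 130 and 109 against 98.8 and 102, and Mki67 at 78.7 and 49.9 against 58.6 and 55.4. Of these 3 genes Mki67 alone overlapped between the genotypes.

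The summed level of the members in Lgr5+ stem-like cells was 3467 and 2783 CPM in WT and 2438 and 2729 CPM in Setdb1-KO, a ratio of 0.83 (exact two-sided permutation p = 0.33, the smallest that 2 libraries against 2 allow). The share of mitosis-high cells differed by -5.12 points (28.5% ± 4.52 against 23.4% ± 1.75, mean ± SD, n = 2, exact p = 0.33). WT library 1 was the highest on both measures. Without it the differences were -1.93 points and -200 CPM, without WT library 2 -8.32 points and -884 CPM, and with all libraries -5.12 points and -542 CPM. In unmarked cells the summed level was 3691 and 3718 CPM against 3917 and 3629, with overlap, and the median log2 fold change of the members was -0.02, with 0 members called (background 0.814%), 4 at an unadjusted p under 0.05 and 0 called by DESeq2. When stem-like and unmarked cells were pooled, so that the stem markers did not divide them, 34.1% and 28.6% were mitosis-high in WT and 29.0% and 32.0% in Setdb1-KO. The genotypes then overlapped, the summed level was 3549 and 3116 CPM against 3087 and 3253 (ratio 0.95), and the median log2 fold change was -0.06, with 0 members called (background 0.989%), 7 at an unadjusted p under 0.05 and 0 by DESeq2.

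**Figure D4:**
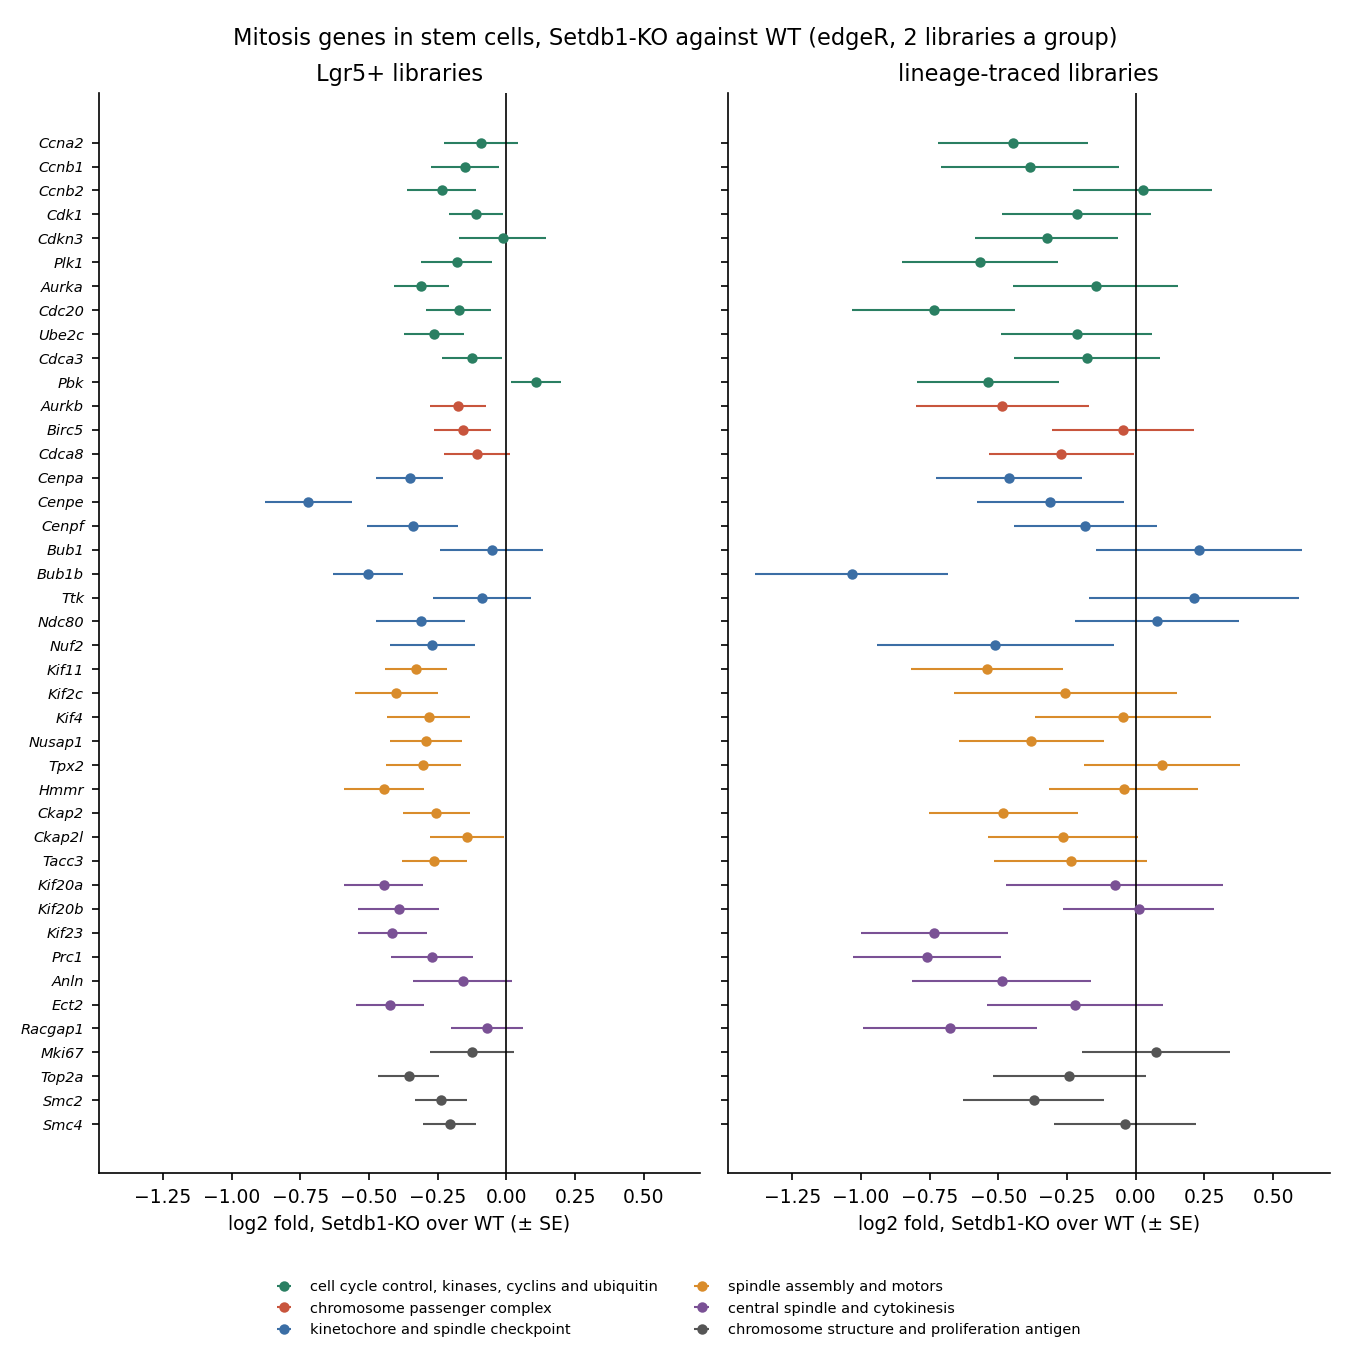
Log2 fold change of Setdb1-KO against WT in stem-like cells (x axis) with a standard error derived from the edgeR F statistic for each of the 42 members (y axis), coloured by role, in the Lgr5+ and the lineage-traced experiment. In both experiments most points lie below 0, 41 of 42 and 35 of 42, and the lowest are Cenpe at -0.72 and Bub1b at -1.03.

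In traced stem-like cells the members had a median log2 fold change of -0.26, with 35 of 42 below 0. None was called (background 1.47% of 9662 genes), 6 had an unadjusted p under 0.05, all lower in Setdb1-KO, and 0 were called by DESeq2. Without Setdb1-KO library 2, 1 member, Prc1, was called lower (1.23% of all genes called). Library values did not overlap for 13 of 42 members (31.0%), against 36.4% of all genes. Bub1b was at 16.9 and 10.0 CPM in WT and at 9.55 and 5.87 in Setdb1-KO (-1.03, SE 0.35, edgeR adjusted p = 0.27). Prc1, which bundles the microtubules of the central spindle, was at 193 and 236 CPM against 124 and 138 (-0.76, SE 0.27, edgeR adjusted p = 0.32). Both were without overlap, and for Prc1 the gap between the genotypes was wider than the difference between the libraries of either.

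Top2a, the leading member of these cells, was at 288 and 213 CPM against 275 and 175, Nusap1, a spindle-associated protein, at 228 and 183 against 185 and 148, and Ube2c at 167 and 158 against 123 and 166. All 3 overlapped between the genotypes. Cenpa, at 141 and 123 CPM against 87.9 and 110 (-0.46), and Smc2, a condensin subunit, at 123 and 123 against 95.2 and 102 (-0.37), did not overlap. Smc4 (99.8 and 97.7 against 119 and 83.6 CPM), Cenpf (84.8 and 107 against 86.9 and 86.2), Birc5 (88.8 and 84.0 against 81.2 and 92.4), Cdca8 (66.8 and 80.2 against 56.7 and 67.3) and Ccnb2 (76.7 and 65.2 against 76.1 and 75.6) overlapped.

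Of the well-known division genes that the text gives by rule, 4 more overlapped, with Mki67 at 67.9 and 47.6 CPM against 80.3 and 52.1, Cdk1 at 56.9 and 75.2 against 50.3 and 64.1, Aurkb at 18.0 and 12.5 against 13.4 and 10.9, and Ccnb1 at 18.3 and 11.3 against 15.6 and 10.5. By role, the median log2 fold changes ran from -0.14 for chromosome structure to -0.49 for the central spindle. The summed level in traced stem-like cells was 2447 and 2307 CPM against 2118 and 1937 (ratio 0.85, exact p = 0.33), without overlap. In the same cells Paneth markers were 9.26% and 13% of UMIs in WT and 4.82% and 2.56% in Setdb1-KO, and the difference in summed level was -350 CPM with Paneth markers in the totals and -568 CPM with them left out.

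The fold change of the 2 experiments, which share no library, was compared by an interaction term over all 8 libraries. In stem-like cells 0 members were called (background 0.702% of 11675 genes), 1 had an unadjusted p under 0.05, and the median difference was -0.06.

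Over all traced cells the direction was the other way. The summed member level was 1120 and 961 CPM in WT and 1972 and 1731 CPM in Setdb1-KO, a ratio of 1.78 without overlap (exact p = 0.33), and 37 of 42 members had a fitted fold change above 0 (median 0.24). None was called (background 8.73% of 12205 genes), 8 had an unadjusted p under 0.05, 7 of them higher in Setdb1-KO, and 0 were called by DESeq2. With a replicate block in the edgeR test 10 members were called, all higher, while the genes called rose from 1066 to 2579. Without Setdb1-KO library 1, 3 of 42 members were called higher, a smaller share than the 18.9% of all genes called in that fit. Library CPM did not overlap for 39 of 42 members, against 70.6% of all genes. Kif20b, a kinesin of cytokinesis, was at 11.5 and 8.04 CPM against 25.2 and 18.3 (log2 fold change 0.59, SE 0.23, edgeR adjusted p = 0.16), Cenpf at 36.3 and 30.3 against 74.8 and 63.7 (0.52), and Birc5 at 41.7 and 48.5 against 80.9 and 102 (0.51). In each of them both Setdb1-KO libraries were higher than both WT libraries.

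This result depends on how libraries were scaled. The TMM factors, which align the bulk of the genes, were 0.865 and 0.797 in WT and 1.32 and 1.10 in Setdb1-KO. Without them 26 members were called higher in Setdb1-KO, but so were 3316 genes of all (491 lower), the median of all genes being 0.54 and that of the members 0.80. The scaling thus moved all genes by about as much as the members. With Paneth markers left out of the totals, the summed level was 1657 and 1367 CPM against 2121 and 1817, a ratio of 1.30, and with cells rich in Paneth RNA left out it was 1155 and 1243 against 2095 and 1796 (1.62). The class makeup also differed, stem-like cells being 18.5% and 10.8% of cells in WT and 32.6% and 23.6% in Setdb1-KO. Absorptive-like cells were 16.1% and 13.1% of cells in WT and 1.27% and 1.98% in Setdb1-KO. Free RNA of these libraries held 806 and 507 member CPM in WT and 1394 and 975 in Setdb1-KO. What makeup and free RNA gave to the difference was not tested.

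Within the traced differentiated classes, goblet-like cells had summed levels of 1132 and 888 CPM in WT and of 1476 and 1133 in Setdb1-KO (ratio 1.29, exact p = 0.33), with the 2 genotypes meeting between 1132 and 1133 CPM. The difference of 295 CPM was 123 without Setdb1-KO library 1, 172 without WT library 2 and 466 without Setdb1-KO library 2. The members had a median log2 fold change of 0.24, 33 of the 38 tested being above 0. None was called there (background 1.92%), 2 had an unadjusted p under 0.05 and 0 were called by DESeq2. Absorptive-like cells had summed levels of 672 and 602 CPM against 796 and 582, with 17 members tested, 0 called (background 15.6%), 0 at an unadjusted p under 0.05 and 0 by DESeq2. Unmarked cells had 1899 and 1081 CPM against 2375 and 2070 (a difference of 733 CPM, but 324 without WT library 2 and 1141 without WT library 1), with a median of 0.26, 0 members called (background 4.36%), 1 at an unadjusted p under 0.05 and 0 by DESeq2. Stem-like and unmarked cells, pooled, were mitosis-high in 22.6% and 11.8% (WT) and in 26.9% and 19.1% (Setdb1-KO), with overlap and a median log2 fold change of 0.03, with 0 members called (background 3.21%), 1 at an unadjusted p under 0.05 and 0 by DESeq2, beside Paneth markers at 13.3% and 24.9% of their UMIs in WT and 5.65% and 3.38% in Setdb1-KO. In traced enteroendocrine-like cells no member passed the filter on low counts, and none was tested (2.2% of the 954 genes tested were called).

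In the Lgr5+ experiment the differentiated classes did not share a direction. Whether their cells carried the Setdb1 deletion was not tested. Goblet-like cells had summed levels of 1420 and 1379 CPM in WT and of 1071 and 1598 in Setdb1-KO, with a median log2 fold change of -0.01 and with 0 members called (background 0.373%), 0 at an unadjusted p under 0.05 and 0 by DESeq2. Absorptive-like cells had 526 and 824 CPM against 995 and 654, a median of 0.24 over 38 members, 0 called (background 0.87%), 2 at an unadjusted p under 0.05, both higher, and 0 by DESeq2. Enteroendocrine-like cells had 1275 and 946 CPM against 445 and 989, a median of -0.54 over the 27 members tested, 0 called (background 0.202%), 8 at an unadjusted p under 0.05, all lower, and 0 by DESeq2. Free RNA held 1684 and 1477 member CPM in these WT libraries and 1203 and 1344 in Setdb1-KO. In each library the absorptive-like and enteroendocrine-like sums lay below that level. What free RNA gave to their differences was not tested. Setdb1-KO library 1 was again the lowest in goblet-like and enteroendocrine-like and the highest in absorptive-like cells, and without Setdb1-KO library 2, 6 of 40 members were called higher in absorptive-like cells (3.52% of all genes called in that fit) and 8 of 27 lower in enteroendocrine-like cells (3.02%).

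Over all Lgr5+ cells the summed level was 2908 and 2520 CPM in WT and 2206 and 2488 in Setdb1-KO (ratio 0.86, exact p = 0.33). The difference of -367 CPM was -173 without WT library 1, -226 without Setdb1-KO library 1 and -561 without WT library 2. The members had a median log2 fold change of -0.20, 40 of 42 being below 0. None was called (background 1.34% of 13662 genes), and 11 had an unadjusted p under 0.05, all lower in Setdb1-KO. DESeq2 called Cenpe alone of the members (adjusted p = 0.0288), a smaller share than that of all genes called by DESeq2. Without Setdb1-KO library 2 the edgeR test called 6 members, all lower, and 3.75% of all genes. Library CPM did not overlap for 24 of 42 members, against 43.1% of all genes.

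The difference between the experiments over all cells was tested by the interaction term. The genotype effect was higher in traced than in Lgr5+ cells for 41 of 42 members, with a median difference of 0.47 on the log2 scale, 12 members at an unadjusted p under 0.05 and 1 called, Kif20b (0.96, SE 0.26, edgeR adjusted p = 0.0435), against 7.58% of 13781 genes. Over all Lgr5+ cells Kif20b was at 27.7 and 21.5 CPM in WT and at 17.6 and 19.5 in Setdb1-KO. Its Setdb1-KO libraries were the lower ones there and the higher ones among the traced cells. The call was lost in 5 of the 8 fits that left out a library.

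Mitosis-high stem-like cells were also set against the other stem-like cells of the same library, as a description, since the members define the split. Median depth of the mitosis-high cells was 0.94 to 1.48 times that of the others, and 105 to 863 cells per library were mitosis-high. Among the genes outside the list with the highest median folds over the 8 libraries were Aspm, a spindle pole protein (7.23, range 2.62 to 12.0), Knl1, a kinetochore scaffold (5.61), Sgo2a, a protector of cohesion (5.59), and Spc25, of the Ndc80 complex (5.28). Tuba1c (4.47), Sgo1 (4.30), H2afx (4.30), Shcbp1 (4.01) and Melk (3.98) were further ones. Foxm1, the factor that switches on mitosis genes, had a median fold of 4.27 (3.13 to 5.69), and Mybl2 of 1.05 (0.39 to 2.48).

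Of the 21 replication genes, 4 had a median fold above 1 in the mitosis-high cells and 17 below 1, with 3 higher and 7 lower in every library. Pclaf, a partner of the sliding clamp, was higher in every library (median fold 1.92), as were Rrm2 (1.68) and Tyms (1.42), enzymes that make deoxynucleotides. The clamp Pcna itself (0.74, 0.59 to 0.91) and Mcm6, of the replicative helicase (0.63, 0.45 to 0.96), were lower in every library. Ung, which removes uracil from DNA, was at 0.23 (0.16 to 0.62). The stem cell genes Lgr5 (0.72, 0.57 to 0.86) and Olfm4 (0.85, 0.76 to 0.90) were lower in the mitosis-high cells of every library. All these cells had been placed in the class by stem markers, Olfm4 among them, so its level within the class depends on that choice.

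**Figure D5:**
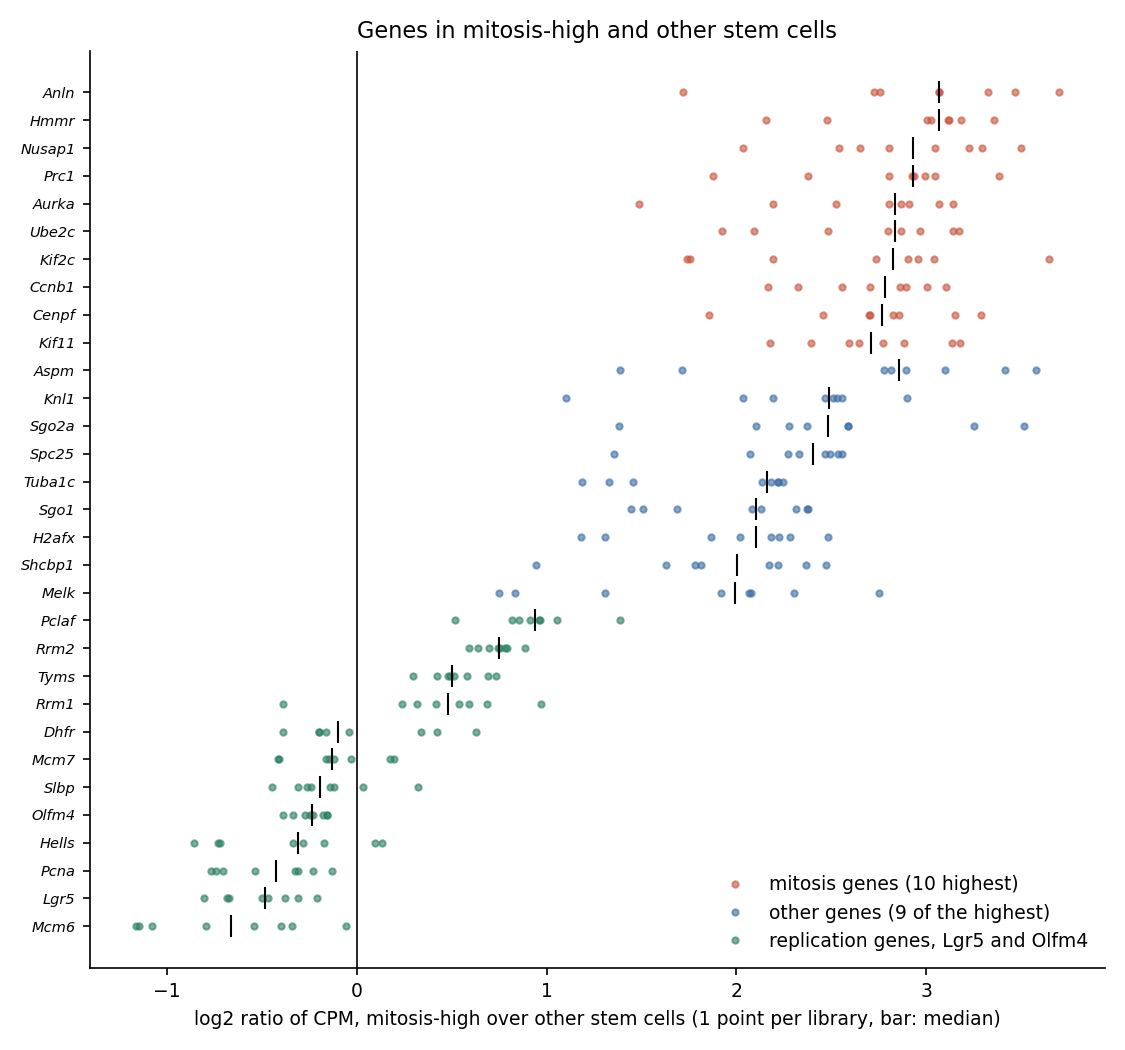
Log2 ratio of CPM in mitosis-high over other stem-like cells (x axis), each point a library, for the 10 members with the highest ratios, 9 other genes with high ratios, and for replication genes, Lgr5 and Olfm4 (y axis). Aspm has a median fold of 7.23, while Pcna, Mcm6, Lgr5 and Olfm4 lie below 0 in all 8 libraries.

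Neighbouring gene lists gave few calls. In Lgr5+ stem-like cells 1 of 66 other mitosis genes fell (0.953% of all genes were called there), Arhgap11a, which acts in cytokinesis, from 41.1 and 33.4 CPM in WT to 13.8 and 17.8 in Setdb1-KO (log2 fold change -1.17, SE 0.14, edgeR adjusted p = 0.0039). It fell by a like amount in unmarked cells (-1.24, edgeR adjusted p = 0.0035), where the median of the members was -0.02. Over all Lgr5+ cells, with 1.34% of all genes called, Cit, the citron kinase of the cleavage furrow, fell as well, from 15.7 and 14.6 to 8.98 and 9.52 CPM (-0.69, edgeR adjusted p = 0.036). Of 21 replication genes 1 rose in stem-like cells, Ung (31.9 and 27.6 to 48.6 and 44.6 CPM, 0.69, SE 0.10, edgeR adjusted p = 0.0135), and the list had a median of 0.16. None of the 17 upstream regulators of mitosis genes, the 16 genes of the anaphase-promoting complex and mitotic exit or the 12 tested G1 cyclins and inhibitors of cyclin-dependent kinases was called in Lgr5+ stem-like cells.

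In traced stem-like cells no gene of the 5 lists was called (1.47% of all genes were). Over all traced cells, 2 of 12 tested genes of the G1 list fell in Setdb1-KO (8.73% of all genes were called there, in either direction). Cdkn1a (p21), an inhibitor of cyclin-dependent kinases, was at 30.7 and 30.8 CPM in WT and at 16.8 and 13.3 in Setdb1-KO (log2 fold change -1.58, SE 0.22, edgeR adjusted p = 0.00046), and Cdkn2b, an inhibitor of the G1 kinases, at 12.1 and 13.7 against 7.34 and 8.15 (-1.23, SE 0.24, edgeR adjusted p = 0.0051). Both also fell in unmarked cells (-1.77 and -1.48). In absorptive-like cells, where 15.6% of all genes were called, Cdkn1a fell by 2.51 on the log2 scale, together with Tubb4b, a tubulin (-1.23), and Ccne2, a G1 cyclin (-2.15, on 1 and 2 UMIs in the Setdb1-KO libraries), and Cks2, a subunit of cyclin-dependent kinases, rose (1.08). The absorptive-like class of Setdb1-KO library 1 held 61 cells.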

How the data were processed

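Single-cell RNA libraries were processed by the authors with Cell Ranger 6.1.1 (build mm10, per the labels) and deposited as raw UMI counts per feature and barcode, without normalization. Barcodes were filtered and classed as the report describes, and UMIs were summed per library and class. Genes passing filterByExpr were tested with edgeR 4.0.16 (TMM, quasi-likelihood, genotype as the term, each experiment on its own). The SE given with these fold changes is the size of the log2 fold change divided by the square root of its F statistic. The procedure was tested on simulated data. The edgeR test was simulated only with fold changes larger than those of most members, so it does not cover changes of their size. Shares and sums were compared by exact two-sided permutation of 4 libraries. Intervals cover counting error only. The study's methods call the libraries of a group biological replicates, without saying which animals each came from. Doublets were left in. Alternatives were DESeq2 1.42.0, no filter, no TMM, a replicate block, each library left out, higher depth, and the highest Scrublet scores (0.8% per 1000 cells, scanpy 1.11.5) left out.

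The members and lists were chosen with earlier results of these data known. The stem list had 11 of its 12 markers in the files. Unmarked cells, their union with stem-like cells, the comparison between classes and the Paneth alternatives were added after seeing the data. By rule, the text names the 10 members highest in stem-like cells of each experiment, Mki67, Top2a, Ccnb1, Cdk1, Aurkb, Cenpa, every called gene of the members and lists, and the 10 other genes (at least 20 CPM) with the highest fold in mitosis-high cells, of which 1 is not reported here. The other genes given with values, such as Bub1b, Cenpe, Hmmr, Kif23, Pbk, Nuf2, Foxm1 and the S-phase genes, were chosen after their values were seen.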

Additional observations from a re-analysis of the deposited data

Results flagged for a closer look

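Over all cells, the effect of Setdb1 loss on Kif20b, a kinesin of cytokinesis, differed between the experiments by the interaction test: it was higher in traced than in Lgr5+ cells by 0.96 on the log2 scale (SE 0.26, edgeR adjusted p = 0.0435). It was the only one of the 42 members called, against 7.58% of all genes tested, and the call was lost in 5 of the 8 fits that left out a library. In stem-like cells the difference was not called.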

How the results depend on the processing

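The limits are 2 libraries a group and 61 or fewer cells in some traced classes. Of 24 differences in mitosis-high share or summed CPM between the genotypes (6 sets of cells in 2 experiments), leaving out 1 library moved 22 by over 1.5 times and turned 7, all in absorptive-like, goblet-like or unmarked cells. The share difference ran from -5.34 to -0.97 points over all Lgr5+ cells and, in the traced experiment, from 4.37 to 12.1 points over all cells, from -7.27 to -0.0033 in stem-like, from 1.55 to 10.4 in goblet-like and from 3.17 to 14.1 in unmarked cells. Beside the calls of members stands, in brackets, the share of all genes called in the same fit. With all libraries, 1 member was called by DESeq2 over all Lgr5+ cells (3.46%), and in stem-like cells 1, Cenpe, by DESeq2 (0.80%), without the filter (1.30%), without TMM (1.89%) and with the replicate block (2.66%). Without the filter 1 member was called in Lgr5+ absorptive-like (2.75%), enteroendocrine-like (0.63%) and pooled stem-like and unmarked cells (5.00%), and 1 in traced absorptive-like cells (4.45%). Over all traced cells 26 members were called without TMM (31.2%) and 10 with the replicate block (21.1%), all higher. The replicate block gave 1 call in Lgr5+ enteroendocrine-like (1.42%), in traced unmarked (8.10%) and in traced stem-like and unmarked cells pooled (7.87%), and for the interaction 2 over all cells (8.77%) and 1 in absorptive-like cells (6.06%). In the sample titles, libraries with the same number have only that number in common. Over genes, their deviations from the group means correlated at 0.0833 (Lgr5+ stem-like), 0.138 (traced stem-like), 0.0117 and 0.309 (all cells). In the other sets the correlation ran from -0.0049 (Lgr5+ enteroendocrine-like) to 0.253 (traced unmarked). The block took the genes called from 183 to 51 and from 1066 to 2579 in all cells.

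With 1 library left out, the calls ran from 0 to 6 over all Lgr5+ cells (6 without Setdb1-KO library 2, 3.75%), from 1 to 9 in Lgr5+ stem-like cells (1 without WT library 1, 4.03%, 9 without WT library 2, 3.74%, 2 without Setdb1-KO library 1, 2.77%, and 6 without Setdb1-KO library 2, 3.02%), and, without Setdb1-KO library 2, up to 6 in absorptive-like (3.52%), 8 in enteroendocrine-like (3.02%) and 1 in pooled stem-like and unmarked cells (4.80%), from 0. In the traced experiment they ran from 0 to 3 over all cells (18.9%) and from 0 to 1 in goblet-like cells (5.70%), the highest being without Setdb1-KO library 1, and from 0 to 1 in stem-like cells (Prc1, without Setdb1-KO library 2, 1.23%). For the interaction they ran from 0 to 10 over all cells (10 without traced Setdb1-KO library 1, 14.8%), from 0 to 1 in absorptive-like cells (1 without Lgr5+Setdb1-KO library 1, 4.24%) and from 0 to 2 in enteroendocrine-like cells (2 without Lgr5+Setdb1-KO library 2, 0.50%).

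The traced difference in mitosis-high cells (Setdb1-KO minus WT) was 8.25 points over all cells in the main setting. It was 5.95 in goblet-like, -3.64 in stem-like and 8.62 in unmarked cells. Under other settings it was 2.17 points over all cells with 4 of 500 UMIs required, 1.21 and 1.00 points in goblet-like cells with 3 and 4 of 500, -8.73 points in stem-like cells of at least 1000 UMIs and 0.14 points in unmarked cells without those rich in Paneth RNA. The difference in summed CPM was 457 over all cells with Paneth markers out of the totals. In stem-like cells it was -486 at 1000 UMIs, -568 with Paneth markers out and -569 without cells rich in Paneth RNA, which left 122 in unmarked cells. In stem-like cells of the Lgr5+ experiment, with 1 library left out, log2 fold changes ran from -0.24 to 0.034 for Cdca8 and from -0.37 to 0.16 for Mki67, turning without WT library 1. In traced stem-like cells they ran from -0.55 to 0.037 for Ube2c, from -0.24 to 0.10 for Birc5 and from -0.48 to 0.023 for Cdk1, turning without Setdb1-KO library 1, from -0.23 to 0.13 for Smc4 (without Setdb1-KO library 2), from -0.61 to 0.080 for Ccnb1 (without WT library 1), from -0.068 to 0.12 for Ccnb2 (without WT library 2 or Setdb1-KO library 2) and from -0.20 to 0.35 for Mki67 (without WT library 2 or Setdb1-KO library 1). They also turned without TMM for Smc4 (0.032) and Birc5 (0.0043), at 1000 UMIs for Ccnb2 (-0.034) and Mki67 (-0.023), and for Ccnb2 without cells rich in Paneth RNA (-0.040). The causes were not tested.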
